A study of Mus musculus with 4 samples.

Results

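The 10 RNAs described here are 8 spliced transcripts that carry small nucleolar RNAs (snoRNAs) in their introns, Gm11974 (also named Snhg15), Gas5, Snhg1, Snhg3, Snhg5, Snhg6, Snhg8 and Snhg12, and the abundant nuclear long noncoding RNAs Malat1 and Neat1. They are 10 of the 24411 genes listed for each library, and were chosen by gene symbol. Gm11974 was picked for its pattern between the groups in these same libraries, so its values are given as a description with no test. The libraries come from 4T1, an established mouse mammary carcinoma line. The 2 control libraries carry the genotype label control, and the 2 others the label CD95ko, a knockout of CD95, the death receptor encoded by Fas. Per the labels' protocols, knockout cells came from a line made with a lentiviral Cas9 vector under blasticidin, given a pair of guide RNAs against exon 9 of the gene, grown from single cells and genotyped by PCR, so each CD95ko library stands for 1 clone. The protocols name a plain control and a Cas9 vector control among the RNA sources, and the file name of control 2 points to the latter, so the groups may also differ in Cas9, drug selection and cloning. No age, time or dose applies, and nothing says that the controls were separate cultures, so p-values measure only the spread between these libraries.

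SnoRNAs guide the chemical modification of ribosomal RNA and other RNAs. Box C/D snoRNAs guide methylation of the ribose, and box H/ACA snoRNAs guide the conversion of uridine to pseudouridine. In mammals most are cut from the introns of a host gene after splicing. Many noncoding hosts start with a pyrimidine run like that of the mRNAs for ribosomal proteins (a terminal oligopyrimidine, or TOP, start), and their spliced RNAs are often degraded by nonsense-mediated decay, so the level of a spliced host RNA is not a level of its snoRNAs. Malat1 sits in nuclear speckles, bodies rich in splicing factors, and Neat1 is the RNA scaffold of paraspeckles.

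The GENCODE M21 annotation (build GRCm38) places 28 snoRNA genes inside the 8 hosts, each 60 to 205 bases long and each in an intron of at least 1 annotated host transcript. Gas5 on chromosome 1 (chr1:161034422-161038539, plus strand) holds 9 of them, and Snhg1 (chr19:8723475-8726443, plus strand) holds 8. Snhg12 (chr4:132308623-132311024, plus strand) holds 4, namely Snora16a, Snora44, Snora61 and Snord99. Snhg3 (chr4:132348014-132353686, minus strand) holds Snora73a and Snora73b, and Snhg5 (chr9:88521050-88522929, minus strand) holds Snord50a and Snord50b. Single snoRNAs lie in Gm11974 (chr11:6525591-6528760, minus strand, with Snora9), Snhg6 (chr1:9941959-9944118, minus strand, with Snord87) and Snhg8 (chr3:123507552-123508404, minus strand, with Snora24). Malat1 (chr19:5795690-5802672) and Neat1 (chr19:5824708-5845478) are both on the minus strand, 22035 bases apart, and hold none. Of the 28 intronic snoRNAs, 8 have a row in the files, and all of these are listed at 0 in all 4 libraries. The values below are thus those of the spliced, polyadenylated hosts, not of the snoRNAs.

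**Figure D1:**
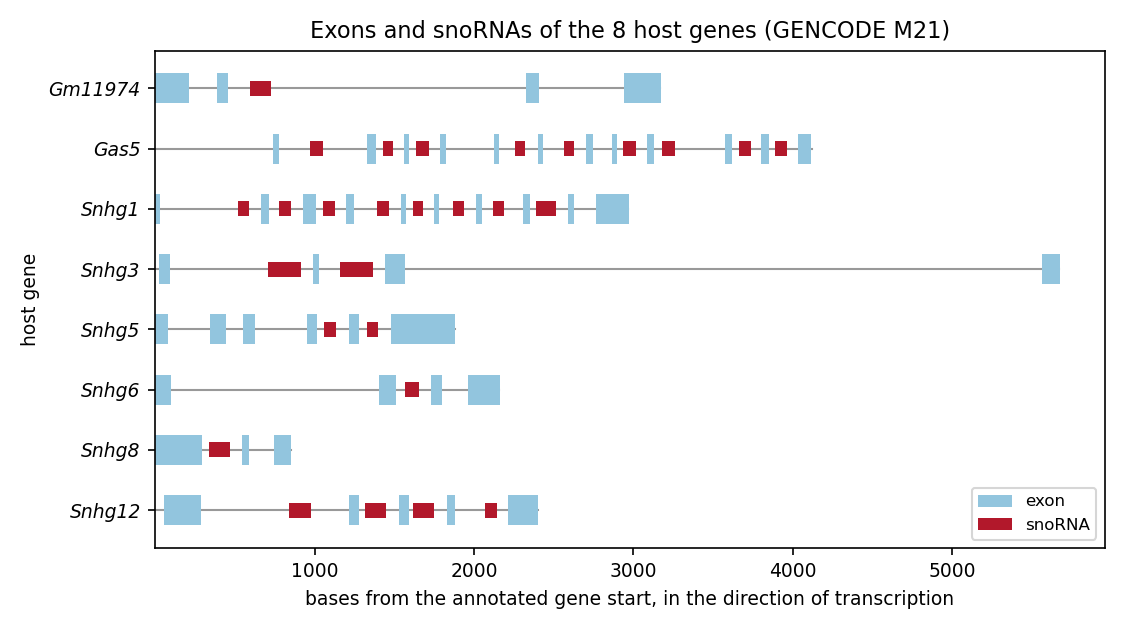
Exons (light blue) and snoRNAs (dark red) of the 8 host genes, drawn for the annotated transcript with the most exons; the x axis is the distance in bases from the annotated gene start in the direction of transcription. Gas5 with 9 and Snhg1 with 8 hold the most snoRNAs, and Gm11974, Snhg6 and Snhg8 hold 1 each.

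The snoRNA that Gm11974 carries is printed first, in the reading direction of the gene (chr11:6528033-6528165, GRCm38, minus strand). Its 133 bases end in the ACA box of this class, in capitals, 3 bases before the end.
Snora9: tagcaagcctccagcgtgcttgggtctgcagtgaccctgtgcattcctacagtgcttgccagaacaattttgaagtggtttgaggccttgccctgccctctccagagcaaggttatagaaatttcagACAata

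The start sites of the hosts are shown because TOP starts are a known feature of this gene class. RefSeq start windows on GRCm38.p6 (250 bases before to 50 after the start) were found for 8 of the 10 genes, and Snhg6 and Neat1 are not in the table. The whole window of Gm11974 is chr11:6528711-6529010 (minus strand), with TGACGTCA at positions -88 to -81 and CACGTG at 12 to 17 from the start in capitals. For Gas5 (chr1:161035106-161035195, plus strand), Snhg1 (chr19:8723427-8723516, plus strand), Snhg8 (chr3:123508307-123508396, minus strand) and Snhg12 (chr4:132308618-132308707, plus strand) the 90 bases from -60 to 30 are given.
Gm11974: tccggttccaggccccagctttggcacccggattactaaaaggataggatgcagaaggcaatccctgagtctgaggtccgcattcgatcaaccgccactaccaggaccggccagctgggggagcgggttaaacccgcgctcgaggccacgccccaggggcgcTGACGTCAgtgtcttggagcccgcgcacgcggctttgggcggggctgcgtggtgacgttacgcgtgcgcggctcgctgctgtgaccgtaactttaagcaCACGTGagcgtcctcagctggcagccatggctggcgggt
Gas5: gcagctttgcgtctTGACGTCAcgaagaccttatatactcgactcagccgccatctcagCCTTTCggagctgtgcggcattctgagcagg
Snhg1: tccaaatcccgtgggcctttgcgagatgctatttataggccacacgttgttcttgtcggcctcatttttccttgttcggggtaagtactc
Snhg8: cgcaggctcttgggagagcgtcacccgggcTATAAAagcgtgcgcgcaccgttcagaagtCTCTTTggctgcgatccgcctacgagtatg
Snhg12: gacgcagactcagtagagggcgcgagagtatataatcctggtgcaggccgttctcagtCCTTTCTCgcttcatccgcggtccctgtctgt

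The motifs were chosen after the sequences had been read, so their matches are descriptions. A pyrimidine run, meaning a C within 5 bases of the start followed by 4 or more C or T on the sense strand, is in 4 of the 8 windows and in 17.1% of the 32851 windows of the table. The run is CCTTTC in Gas5, CTTCC in Snhg3, CTCTTT in Snhg8 and CCTTTCTC in Snhg12. TATAAA on the sense strand with its first base between -40 and -20 is in Snhg5 and Snhg8 and in 1.99% of all windows. TGACGTCA, which reads the same on both strands, is in Gm11974 and Gas5 and in 1.79% of all windows. CACGTG, also the same on both strands, is in Gm11974 alone of the 8 and in 7.15% of all windows.

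Before the members, the libraries were checked against their labels. Fas itself read 49.4 and 39.2 transcripts per 1000000 (TPM) in the controls, 15.8 TPM in CD95ko 1 and 49.4 TPM in the library labelled CD95ko 2. Its level thus does not set that library apart from the controls. Some of the results below, not all, are also given without that library. A deletion or frameshift in 1 exon need not lower the RNA, and gene-level TPM does not show the edit. Epithelial genes were present in all 4 libraries except Krt5, listed at 0, and 11 of 13 markers of other cell types were at 0 throughout, with Pdgfra at no more than 3.53 TPM and Col1a1 at no more than 1.38 TPM. Epcam read 179 and 166 TPM in the controls and 532 and 565 TPM in the clones. Of 6 tested epithelial markers, 5 were higher in CD95ko without overlap of the groups, as were 29.2% of all tested genes. Rn45s, the row of the ribosomal RNA precursor, which as a rule carries no poly(A) tail, took up 0.531% and 0.371% of control TPM, against 0.733% and 0.893% for the clones, while leaving it out of the total moved the share of the 10 RNAs given below only from 0.375% to 0.377% in the control mean and from 0.207% to 0.209% in the CD95ko mean. TPM keeps no depth, so the number of reads behind each value is unknown.

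TPM values are scaled to gene length and to the library total and allow levels of different genes to be set side by side. In the controls, Snhg1 was the most abundant of the 10, at 1001 TPM in control 1 and 1473 in control 2. Snhg12 and Gm11974 followed with overlapping ranges, then Neat1 and Malat1. Snhg5, Gas5 and Snhg6 came next, each overlapping its neighbour, and Snhg8 and Snhg3 were lowest. In the CD95ko libraries the order differed, and Neat1 was the most abundant of the 10 in both clones. The 10 RNAs held 0.342% and 0.408% of all TPM in the controls and 0.249% and 0.165% in CD95ko 1 and 2. The 8 hosts alone held 0.272% and 0.345% in the controls against 0.112% and 0.0565% in the clones, while Malat1 and Neat1 together held 0.0703% and 0.0629% against 0.137% and 0.108%. The shares of the 10 RNAs and of the 8 hosts include Gm11974. As it was picked for its pattern, part of their difference between the groups follows from that choice. In bulk RNA, fewer cells with an RNA and less of it per cell cannot be told apart.

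**Figure D2:**
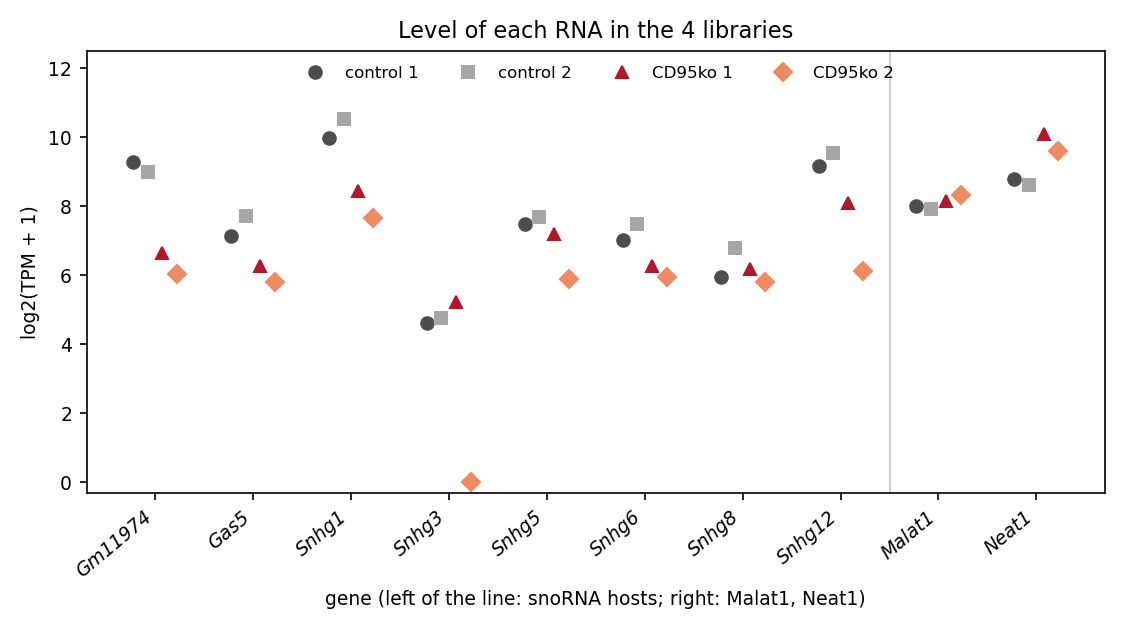
Level of each of the 10 RNAs as log2(TPM + 1) on the y axis, 1 point per library (circles control 1, squares control 2, triangles CD95ko 1, diamonds CD95ko 2). Both CD95ko points lie under both control points for Gm11974, Gas5, Snhg1, Snhg5, Snhg6 and Snhg12, and above both for Malat1 and Neat1.

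Gm11974, the RNA chosen for its pattern, stood at 615 and 505 TPM in the controls and at 98.7 and 64.1 TPM in CD95ko 1 and 2. Both clones were far under both controls, at 17.6% and 11.4% of the control mean. Its log2 fold change was -2.79 on the log2(TPM + 1) scale used for all fold changes here, which understates the change of low genes.

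For the other 9 RNAs the groups were compared with limma on log2(TPM + 1) over all 11167 genes that reached 1 TPM in at least 2 libraries, and p-values were adjusted by the Benjamini-Hochberg method over all of them. All 10 RNAs passed that filter, Snhg3 in 3 of 4 libraries. None of the 9 passed an adjusted p of 0.05, a threshold that 0.0537% of tested genes passed (6 genes). At an unadjusted p under 0.05, 5 of the 9 were lower in CD95ko (Gas5, Snhg1, Snhg5, Snhg6, Snhg12), against 5.68% of tested genes, and 1 was higher (Neat1), against 9.25%. The 2 groups did not overlap for 5 lower RNAs, the same 5, where 18.3% of tested genes were lower without overlap, and for 2 higher RNAs, where 29.2% were. Snhg1 and Snhg12 were at least 2-fold lower in all 4 pairs of a CD95ko and a control library, as were 1.96% of tested genes. The median log2 fold change of the 9 was -1.14, and that of the 7 hosts among them -1.39, beside 0.13 over all tested genes. These RNAs were chosen with earlier results of the same libraries known, so the counts do not stand as independent evidence. Without the library labelled CD95ko 2, which leaves 1 clone, the log2 fold change was -1.81 for Snhg1, -1.26 for Snhg12 and 1.38 for Neat1. Gas5 stood at -1.16 and Snhg6 at -0.99 without that library.

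Among the hosts of box C/D snoRNAs, Snhg1 had the smallest p. Its levels were 1001 and 1473 TPM in the controls and 346 and 203 TPM in CD95ko 1 and 2 (mean 1237 ± 334 against 274 ± 101, SD, n = 2 each). The clones kept 28.0% and 16.4% of the control mean, and no pair of libraries overlapped. The log2 fold change was -2.19 ± 0.35 (SE), with a limma adjusted p of 0.0676. Gas5, first known as a transcript that builds up in growth-arrested cells, stood at 140 and 209 TPM in the controls and at 75.7 and 55.0 TPM in the clones. Both clones were under both controls, which themselves differed by 0.57 on the log2 scale. The log2 fold change was -1.39 ± 0.35, adjusted p 0.157.

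Snhg6, host of Snord87, read 128 and 180 TPM in the controls and 76.1 and 61.2 TPM in the clones. The groups did not overlap, at a log2 fold change of -1.14 ± 0.34 and an adjusted p of 0.192. Snhg5, host of the paired Snord50 genes, read 177 and 206 TPM in the controls, 145 TPM in CD95ko 1 and 58.5 TPM in CD95ko 2. CD95ko 1 kept 75.8% of the control mean and CD95ko 2 30.6%, so most of the mean difference came from 1 clone. The log2 fold change was -1.04 ± 0.43 (adjusted p 0.309), -0.39 without CD95ko 2 and -1.69 without CD95ko 1.

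Snhg12, host of 3 H/ACA snoRNAs and 1 C/D snoRNA, read 574 and 738 TPM in the controls, 271 TPM in CD95ko 1 and 69.0 TPM in CD95ko 2. Both clones were under both controls, and CD95ko 2 was 1.96 under CD95ko 1 on the log2 scale. The fold change of -2.24 ± 0.55 (adjusted p 0.147) was -1.26 without CD95ko 2 and -3.22 without CD95ko 1.

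The H/ACA hosts Snhg3 and Snhg8 had overlapping groups. Snhg3 stood at 23.8 and 26.1 TPM in the controls and 36.7 TPM in CD95ko 1, and was listed at 0 in the library labelled CD95ko 2. CD95ko 1 was the highest of the 4 libraries and CD95ko 2 the lowest, so the log2 fold change of -2.08 ± 1.34 (adjusted p 0.499) rests on 1 clone and was 0.54 without it. A 0 in a TPM table can also be a failed assignment of reads, and Snhg3 overlaps Rcc1 on the same strand. Rcc1, which encodes a regulator of the nuclear transport GTPase Ran, read 90.4, 85.8, 61.2 and 19.1 TPM in control 1, control 2, CD95ko 1 and CD95ko 2. How reads were shared between the overlapping genes is not given in the sources used here, so the Snhg3 values are uncertain. Snhg8 read 60.9 and 110 TPM in the controls and 71.1 and 54.5 TPM in the clones. Control 2 was the highest and the other 3 libraries lay close together, with a log2 fold change of -0.39 ± 0.39 (adjusted p 0.677) that became 0.03 without control 2.

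Malat1 and Neat1 read higher in both CD95ko libraries than in both controls. Neat1 stood at 444 and 390 TPM in the controls and at 1086 and 767 TPM in CD95ko 1 and 2 (mean 417 ± 38.7 against 926 ± 225, SD, n = 2 each). The log2 fold change was 1.13 ± 0.30, with an adjusted p of 0.159. Malat1 read 258 and 239 TPM in the controls and 284 and 318 TPM in the clones. These groups did not overlap either, but the log2 fold change was small, 0.27 ± 0.28 (adjusted p 0.685), against a median of 0.13 for all tested genes. Frmd8, a gene beside this chromosome 19 pair, read 24.5, 24.0, 32.4 and 42.8 TPM in the order control 1, control 2, CD95ko 1, CD95ko 2.

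**Figure D3:**
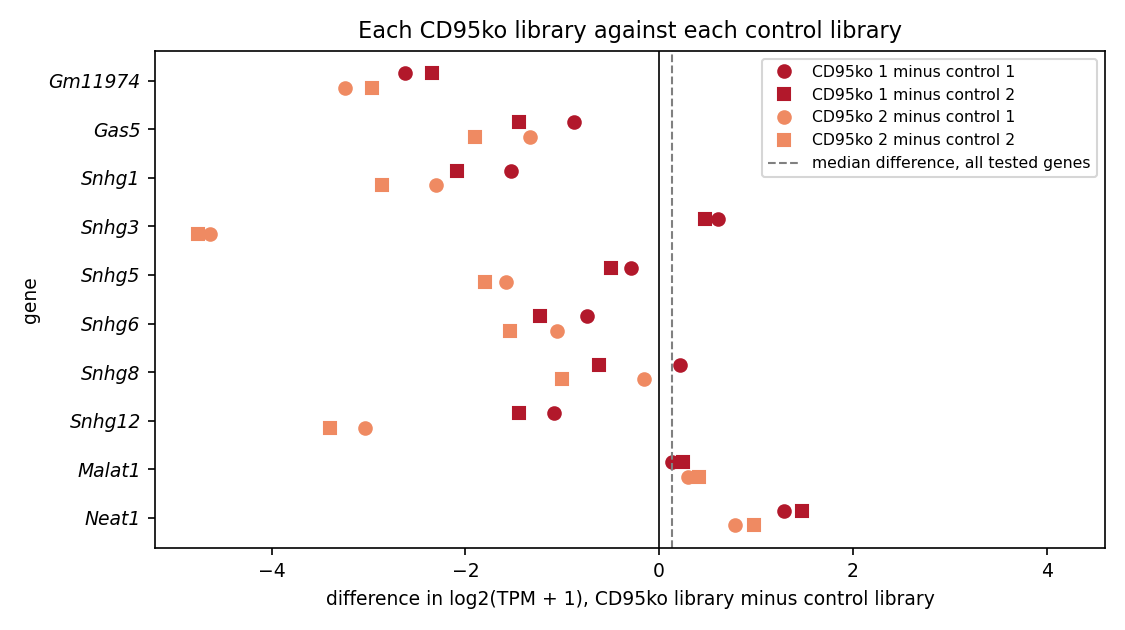
Difference in log2(TPM + 1) of each CD95ko library from each control library (x axis) for each gene (y axis); colour marks the clone, shape the control, and the dashed line the median difference of all tested genes, 0.13. Gm11974, Snhg1 and Snhg12 lie left of -1 in all 4 pairs, while the Snhg3 points of the 2 clones lie on opposite sides of 0.

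Libraries of 1 group also differed among themselves. The median level of all tested genes was 22.32 TPM in control 1 and 16.29 in control 2. It was 22.85 TPM in CD95ko 1 and 21.32 in CD95ko 2. CD95ko 2 was lower than CD95ko 1 in all 8 hosts, by 0.31 (Snhg6) to 1.96 (Snhg12) on the log2 scale leaving Snhg3 aside. Control 2 was above control 1 in 7 of the 8 hosts, and in Gas5 (0.57 against 0.46), Snhg6 (0.48 against 0.31) and Snhg8 (0.84 against 0.38) the controls lay farther apart than the clones. With 1 library per clone these are values with no test. Neat1 was also higher in CD95ko 1 than in CD95ko 2, and Malat1 lower.

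Genes that overlap the RNAs or start next to them were read for comparison, since the sources used here do not say whether counting used strand. Slc3a2, the heavy chain of several amino acid transporters, starts 105 bases from Snhg1 on the opposite strand and read 315, 314, 309 and 129 TPM in control 1, control 2, CD95ko 1 and CD95ko 2. Its level in CD95ko 1 was close to the controls, where Snhg1 was at 28.0% of their mean, and in CD95ko 2 it was lower. On the other side, Wdr74 lies 9383 bases from Snhg1 on the same strand and read 240, 232, 153 and 53.7 TPM, with both clones under both controls (log2 fold change -1.37 ± 0.46, adjusted p 0.238). Wdr74 was named after its values were seen. Zbtb37, antisense to Gas5, read at most 3.34 TPM, and Mcmdc2, antisense to Snhg6, at most 1.31 TPM, both far under the hosts. Beside Gm11974, the myosin gene Myo1g was listed at 0 in all 4 libraries, and Ccm2, a scaffold gene of cerebral cavernous malformations, read 97.9, 62.2, 113 and 84.1 TPM in the same order, with overlapping groups.

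The 5 tested genes nearest to Gm11974, by the Euclidean distance of centred log2(TPM + 1) profiles over the 4 libraries, were Mettl1, Plk2, Ppp1r15a, Car6 and Prelid2, at distances of 0.288 to 0.478. Mettl1, a tRNA methyltransferase, read 208 and 162 TPM in the controls and 40.8 and 21.3 TPM in CD95ko 1 and 2. Plk2, a polo-like kinase, read 258 and 260 TPM against 38.0 and 36.8 TPM, and Ppp1r15a, a stress-induced phosphatase subunit, 216 and 260 TPM against 48.3 and 24.5 TPM. Car6 and Prelid2 were under 7 TPM in the controls and listed at 0 in both clones. By the same distance, Snhg1 ranked 43 of all tested genes, Snhg12 106, Gas5 282, Snhg6 475 and Snhg5 598, while Snhg8 ranked 2703, Malat1 6124, Snhg3 7520 and Neat1 9696. Distances over 4 libraries follow the group difference first and say little else.

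The list of other noncoding host genes mixes hosts of snoRNAs with hosts of microRNAs and an antisense RNA, and the annotation places a snoRNA inside 5 of its 11 tested genes (Snhg4 and Snhg7 were not matched there by symbol). Of the 11, 2 were lower at an unadjusted p under 0.05 and none higher, where 5.68% and 9.25% of all tested genes were. Their median log2 fold change was 0.14, and 0.46 without the library labelled CD95ko 2, beside 0.13 and 0.19 over all tested genes. Of the 5, 1 was lower and none higher, with a median of 0.33. That 1 was Snhg17, at 69.9 and 70.9 TPM in the controls and 19.2 and 6.77 TPM in the clones (log2 fold change -2.51 ± 0.51, adjusted p 0.115). Ptgs2os, an antisense RNA with no annotated snoRNA, was the other of the 2, at 2.00 and 3.51 TPM in the controls and listed at 0 in both clones. Snhg14, a snoRNA host, at 2.06 ± 0.544 TPM against 3.75 ± 0.948, and the microRNA host Mir22hg, at 5.42 ± 3.29 against 11.9 ± 0.297, had higher means in CD95ko with adjusted p of 0.667 and 0.407. Of 32 protein-coding hosts, 7 were lower and 1 was higher at an unadjusted p under 0.05, where 5.68% and 9.25% of all tested genes were, with a median of -0.14. Without overlap of the groups 13 were lower and 2 higher, where 18.3% and 29.2% of all tested genes were. Taf1d, a subunit of the RNA polymerase I selectivity factor, read 560 and 549 TPM in the controls and 227 and 137 TPM in the clones (log2 fold change -1.64, adjusted p 0.108). Ppan, a ribosome biogenesis factor, had a mean of 139 ± 22.4 TPM in the controls and 64.0 ± 14.4 in the clones (adjusted p 0.202).

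The proteins that bind or assemble snoRNAs leaned lower as a list. Of 18 tested genes for the core and assembly proteins of snoRNA particles, 11 were lower and none higher at an unadjusted p under 0.05, 16 had a fold change below 0, and 15 were lower without overlap of the groups. Of all 11167 tested genes, 5.68% were lower at that p, 4759 had a fold change below 0, and 18.3% were lower without overlap. The median log2 fold change was -0.95, and none passed the adjusted threshold. Without the library labelled CD95ko 2, a check added after the data were seen, 5 were lower and none higher, with a median of -0.65, and Nop58 passed the adjusted threshold. Of all tested genes in that fit, 598 were lower at an unadjusted p under 0.05 and 130 past the adjusted threshold, with a median of 0.19. Nop58, a core protein of C/D particles, read 597 and 670 TPM in the controls and 256 and 89.6 TPM in the clones (log2 fold change -2.05, adjusted p 0.136). Nop56, its partner, read 700 and 685 TPM against 329 and 144 TPM (-1.66, adjusted p 0.144). Fbl, the methyltransferase fibrillarin of the same particles, read 312 and 328 TPM against 157 and 159 TPM. Nolc1, a chaperone of snoRNA particles, read 209 and 222 TPM against 97.3 and 39.4 TPM, and Ruvbl2, a helicase of the assembly complex, 146 and 186 TPM against 68.1 and 66.0 TPM. Dkc1, the pseudouridine synthase of H/ACA particles, read 126 and 117 TPM against 74.3 and 29.7 TPM. Nop58, Nop56 and Dkc1 are also in the list of protein-coding hosts, so the lists are not separate counts. Fbl and Dkc1 were named after their values were seen.

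Lists tied to how host RNAs are translated and degraded had medians nearer 0. Of 21 factors of nonsense-mediated decay 1 was lower at an unadjusted p under 0.05 and none higher (median -0.23). That 1 was Magohb, an exon junction protein, with means of 64.3 ± 17.9 against 31.3 ± 6.28 TPM. Gspt1 (72.7 ± 16.2 against 44.2 ± 15.9 TPM) and Smg5 (91.1 ± 8.94 against 60.3 ± 25.2) had adjusted p of 0.424 and 0.467. Of 74 tested ribosomal protein genes, whose mRNAs carry TOP starts, 6 were lower and none higher, with a median of -0.20. For both lists the count lower at that p is near the 5.68% of all tested genes. However, none was higher at that p in either list, where 9.25% of all tested genes were. Both medians lie under the 0.13 of all tested genes. Without overlap of the groups, 42.9% of the decay factors and 40.5% of the ribosomal protein genes were lower, against 18.3% of all tested genes. None and 8.11% were higher without overlap, against 29.2%. Without the library labelled CD95ko 2 the medians were -0.08 and -0.12, beside 0.19 over all tested genes. Rps19 was among the 6 ribosomal protein genes lower at that p, at 3303 ± 911 TPM in the controls and 1740 ± 18.0 in the clones. Of 17 other TOP mRNAs, 11.8% were lower and 29.4% higher without overlap of the groups, against 18.3% and 29.2% of all tested genes. Their median was 0.20, beside 0.13 over all tested genes. At an unadjusted p under 0.05, 1 was lower and 1 higher, where 5.68% and 9.25% of all tested genes were. Eef1g, a subunit of an elongation factor, was the lower one at 2413 ± 93.3 against 1544 ± 46.2 TPM, and Eif4b, an initiation factor, the higher one at 287 ± 58.0 against 536 ± 165 TPM.

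Proteins of the nuclear bodies in which Neat1 and Malat1 sit were read next. Of 19 paraspeckle proteins, 2 were higher at an unadjusted p under 0.05 and none lower, with a median of 0.14, near the 9.25% and 0.13 of all tested genes. Without the library labelled CD95ko 2 the median was 0.38, beside 0.19 over all tested genes. Pspc1, a core paraspeckle protein, read 22.0 and 19.6 TPM in the controls and 46.7 and 53.7 TPM in the clones (log2 fold change 1.23, adjusted p 0.213). Nono, which binds Neat1 directly, read 243 and 231 TPM against 373 and 495 TPM (0.85, adjusted p 0.239). Without overlap of the groups 7 of the 19 were higher and 1 was lower, where 29.2% and 18.3% of all tested genes were. The lower one, Sfpq, read 162 and 151 TPM against 129 and 92.7 TPM (-0.51, limma adjusted p 0.488). Sfpq was named after its values were seen. Of 23 nuclear speckle proteins, 4 were lower and none higher at an unadjusted p under 0.05, where 5.68% and 9.25% of all tested genes were. Their median was -0.38. The groups did not overlap for 14 lower and 3 higher ones, against 18.3% and 29.2% of all tested genes. Srsf7, a splicing factor of the SR family, read 191 and 207 TPM in the controls and 90.9 and 61.7 TPM in the clones (-1.40, adjusted p 0.144). Srsf3 of the same family had means of 342 ± 41.8 and 153 ± 43.2 TPM. Among 11 other long noncoding RNAs that passed the filter, Pvt1, the neighbour of Myc, read 33.8 and 23.5 TPM in the controls and 13.9 and 6.46 TPM in the clones. Firre, a nuclear RNA of the X chromosome, read 10.2 and 9.25 TPM against 22.1 and 22.8 TPM. The median of those 11 was 0.11.

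**Figure D4:**
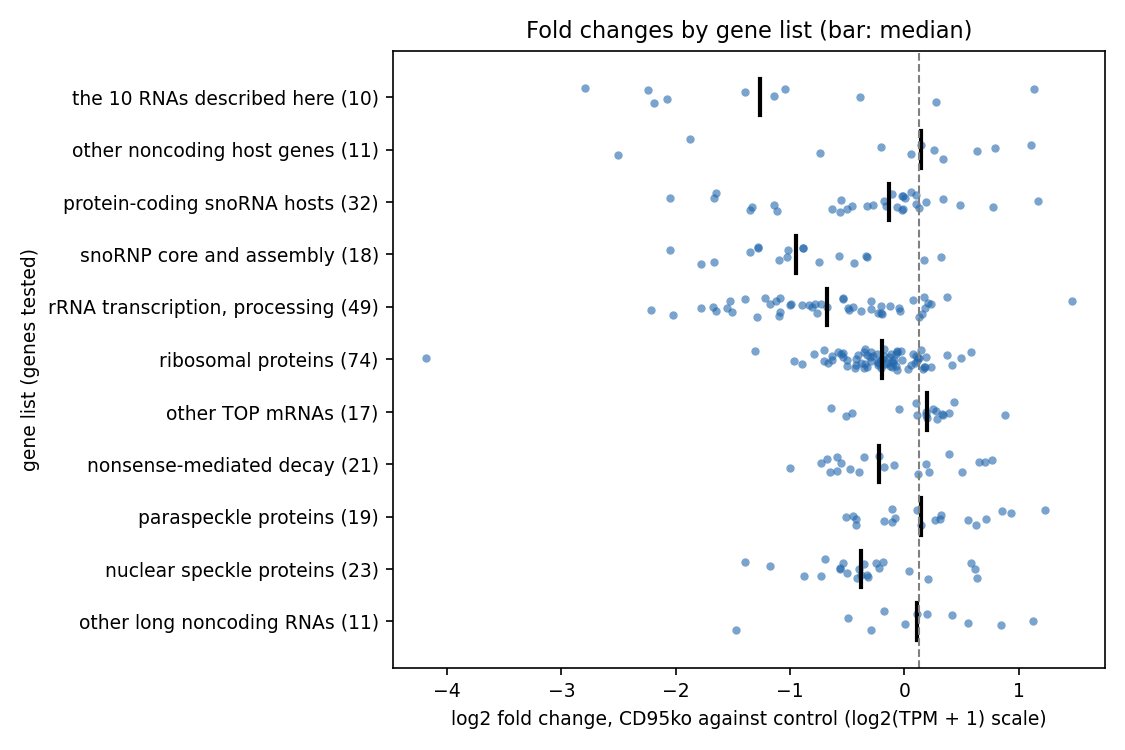
Log2 fold changes of CD95ko against control on the log2(TPM + 1) scale (x axis) by gene list (y axis, number of tested genes in brackets); each point is a gene, the bar is the list median and the dashed line the median of all tested genes, 0.13. The snoRNA particle proteins have a median of -0.95, and the other noncoding host genes, of which 5 of 11 hold an annotated snoRNA, one of 0.14.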

How the data were processed

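Polyadenylated RNA of 2 control and 2 CD95ko libraries of 4T1 cells was reverse transcribed in the SMART-seq2 manner, amplified by PCR and sequenced. The labels' protocols mention no molecular identifiers. The authors deposited TPM values per gene symbol. The submitters' processing notes name STAR 2.6.0, RSEM 1.3.0 and the mm10 build; the counting strand and the annotation are not given in the sources used here. Each file sums to 1000000 TPM with no read counts, so depth and counting error are unknown.

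Genes with at least 1 TPM in at least 2 libraries (11167 of 24411) were tested with limma 3.58.1 in R 4.3.3 on log2(TPM + 1), with a mean-variance trend, two-sided, and Benjamini-Hochberg adjustment over all tested genes. The code was tested on simulated data. An exact permutation test of 2 against 2 libraries cannot go below p = 0.333, so none was used. Same-numbered libraries did not deviate together (correlation of deviations -0.0814) and were not paired. The genes named were the 10 RNAs, the 5 profiles nearest to Gm11974, annotated neighbours, Fas, and up to 4 genes of each list with the smallest unadjusted p. Some genes that this rule names are not reported here. Lists were given as counts and medians with no set test. The members and lists were chosen with earlier results of these data known. Alternatives were another pseudocount, no filter, no trend, robust variances, quantile normalization, rescaling, a replicate block and leaving out each library. List counts without CD95ko 2 were added after seeing the data. Gene positions came from GENCODE M21, start windows from RefSeq.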

Additional observations from a re-analysis of the deposited data

How the results depend on the processing

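Over all tested genes, 6 passed the adjusted threshold in limma. With a pseudocount of 5 the number was 39, and with robust variances 52. It was 0 with a pseudocount of 0.1 (1553 at an unadjusted p under 0.05), 0 without the filter (1636), 0 without the trend (1531) and 0 after quantile normalization (1862). The replicate numbers pair nothing in the labels, and a replicate block left 2 genes. Leaving out 1 library gave 0 to 1034 genes: 0 without control 1 (930 unadjusted), 0 without control 2 (469), 1034 without CD95ko 1 and 194 without CD95ko 2; a lone library is then assumed to vary like the other group. Of the 9 RNAs other than Gm11974, 0 passed, 1 (Snhg1) with a pseudocount of 5 and 1 (Snhg1) with robust variances. Leaving out 1 library gave 0 to 6 of them: Gas5, Snhg1, Snhg3, Snhg5, Snhg6 and Snhg12 without CD95ko 1, and Snhg1, Snhg12 and Neat1 without CD95ko 2 (3). Snhg3 ranged from -4.70 to 0.54 on the log2 scale over these omissions, with 0.54 without CD95ko 2, and Snhg8 from -0.81 to 0.031, with 0.031 without control 2. The median of the 10 RNAs, which include the picked Gm11974, was -1.27, and -0.69 without CD95ko 2. Leaving Gm11974 out, the median of the other 9 over all 4 libraries was -1.14. Of 72 fold changes of these 9 under 8 settings that kept all 4 libraries, 70 kept their side of the threshold and none changed direction. Gm11974, given without a test, stayed between -2.85 and -2.73 in the same settings. Quantile normalization moved the median of all tested genes from 0.13 to 0.002, so differences are best read against it. Without ribosomal protein genes in the total, the share of the 10 RNAs in the controls moved from 0.375% to 0.496%. The cause of these differences was not tested.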

Other observations

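A list of 49 factors of ribosomal RNA transcription and processing was written after the values of the 10 RNAs had been seen. Of these, 15 were lower and 1 was higher at an unadjusted p under 0.05, where 5.68% and 9.25% of all tested genes were, none passed the adjusted threshold in limma, and the median log2 fold change was -0.68 beside 0.13 over all tested genes. Without the library labelled CD95ko 2, the median was -0.29, beside 0.19 over all tested genes. The gene higher at that p was Wdr36, at 120 and 88.7 TPM in the controls and 331 and 250 TPM in CD95ko 1 and 2. Myc, a transcription factor known for its part in ribosome biogenesis, was also looked up afterwards. It read 716 and 659 TPM in the controls and 311 and 106 TPM in the clones (log2 fold change -1.91 ± 0.46, limma adjusted p 0.147). Both clones were under both controls, and CD95ko 2 was the lowest of the 4 libraries. A link between Myc and the hosts was not tested.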
